A study of Mus musculus with 12 samples.

Results

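RXR peaks of E14 mouse embryonic stem (ES) cells treated with retinoic acid (RA) were set against those of control cells. The members were all peaks of the RXR list with RA (1970) and of the RXR list of the control (1089), 3059 of the 76731 peaks in the 12 lists of the series. Each peak was put in a class by 1 bp of overlap with the other list: shared, RA only or control only. The series mapped RXR and the lysine 27 acetylation of histone H3 (H3K27ac, found at active promoters and enhancers) by chromatin immunoprecipitation and sequencing. E14 is an established wild type ES line, and it was grown here without feeder cells on gelatin, with LIF. The RA cells received 1 µM RA for 24 h. Other RXR lists of the series, used below as a readout, came from ES cells given LG268 or GW3965, each at 1 µM for 24 h. Further ones came from day 8 and day 16 of a differentiation, with 2 replicates each. The protocol names dimethylsulfoxide as the vehicle, and the label of the control library says only that it is a control. The RA and control RXR libraries came from an RXR antibody after crosslinking in 2 steps, with disuccinimidyl glutarate and formaldehyde. There was 1 library for each ES condition. No test between RA and control was therefore possible, and the difference between the lists was not tested. Read totals are not in the lists, which leaves depth unknown, and depth and treatment cannot be told apart.

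RXR belongs to the nuclear receptors and binds DNA in pairs with other members, among them the retinoic acid receptors (RARs), the liver X receptors (LXRs) and the PPARs. RA, made from vitamin A, is the ligand of the RARs, and RAR with RXR sits on pairs of short hexamers in or near genes for retinoid metabolism, Hox genes and other developmental regulators. In ES cells RA is widely used to start neural differentiation. The hexamers are arranged as direct repeats, and the number of bases between them differs between the partner receptors.

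The promoters below show what lay under some of the peaks. Promoter sequences are from RefSeq (GRCm38.p6, the assembly of the mm10 coordinates in the lists) and are given 5′ to 3′ on the strand of the gene, as the 250 bases before the start of the transcript. Capitals mark direct repeats, which are 2 copies of NGNTCA in the same direction with 0 to 5 bases between them. Rarb, the gene for retinoic acid receptor beta, shows a shared peak over a repeat with 5 bases between the hexamers (DR5), at chr14:16575477-16575726, minus strand. Gm52524 (chr2:115776907-115777156, minus strand) and Syndig1 (chr2:149830533-149830782, plus strand) show RA only peaks over a DR5 built from the same 4 hexamer spellings, given below with the counts. Tbc1d5 (chr17:51179353-51179602, minus strand) was the highest RA only promoter peak by rank and has a looser DR5. Ranbp17 (chr11:33513754-33514003, minus strand) shows a repeat with 1 base between the hexamers (DR1), overlapped by a looser one with 2 bases, under an RA only peak. Fasn (chr11:120824548-120824797, minus strand) is shown because its shared peak was among the highest of both lists while this stretch has no direct repeat.
Rarb: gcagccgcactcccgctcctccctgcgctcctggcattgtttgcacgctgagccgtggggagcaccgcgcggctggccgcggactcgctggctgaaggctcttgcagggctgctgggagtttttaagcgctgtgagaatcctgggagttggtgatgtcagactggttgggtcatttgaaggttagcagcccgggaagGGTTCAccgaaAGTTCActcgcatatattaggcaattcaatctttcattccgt
Gm52524: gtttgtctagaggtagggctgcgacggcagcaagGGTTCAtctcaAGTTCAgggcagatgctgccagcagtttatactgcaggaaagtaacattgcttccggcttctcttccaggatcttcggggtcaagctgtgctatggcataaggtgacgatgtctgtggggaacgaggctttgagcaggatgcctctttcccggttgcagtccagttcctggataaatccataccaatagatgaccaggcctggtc
Syndig1: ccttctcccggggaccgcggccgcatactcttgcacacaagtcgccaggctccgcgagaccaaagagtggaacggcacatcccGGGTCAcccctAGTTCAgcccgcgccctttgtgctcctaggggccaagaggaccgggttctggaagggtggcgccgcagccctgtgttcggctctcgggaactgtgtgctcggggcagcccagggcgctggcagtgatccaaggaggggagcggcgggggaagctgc
Tbc1d5: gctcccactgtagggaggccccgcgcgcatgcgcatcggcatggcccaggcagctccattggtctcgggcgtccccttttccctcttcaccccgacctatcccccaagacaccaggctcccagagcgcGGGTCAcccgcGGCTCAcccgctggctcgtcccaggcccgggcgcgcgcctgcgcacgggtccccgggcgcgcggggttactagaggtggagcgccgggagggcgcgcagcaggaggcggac
Ranbp17: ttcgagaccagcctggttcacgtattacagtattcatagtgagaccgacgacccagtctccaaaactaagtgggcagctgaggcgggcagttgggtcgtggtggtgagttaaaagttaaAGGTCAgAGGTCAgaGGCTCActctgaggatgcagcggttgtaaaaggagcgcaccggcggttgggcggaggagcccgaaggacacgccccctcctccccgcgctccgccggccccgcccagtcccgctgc
Fasn: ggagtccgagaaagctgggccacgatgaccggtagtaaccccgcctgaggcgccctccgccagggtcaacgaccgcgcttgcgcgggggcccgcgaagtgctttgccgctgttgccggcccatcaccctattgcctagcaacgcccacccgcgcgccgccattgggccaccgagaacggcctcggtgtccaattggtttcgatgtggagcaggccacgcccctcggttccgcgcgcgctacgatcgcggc

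The RA list contained most control sites and more besides. Of the 1089 control peaks, 784 (72.0%) were shared, and of the 1970 RA peaks 781 (39.6%) were. As merged regions the lists made 2273, of which 779 had a peak in both, 1189 with RA only (52.3%) and 305 in the control only (13.4%). The lists differ in length, so these shares depend on it. With both limited to their 1089 highest scores, 43.3% of RA peaks and 43.1% of control peaks had no partner, and lists of equal length give nearly equal shares by construction. At 100 peaks each the shares were 30.0% for RA and 29.0% for control.

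Each peak has a score given by the authors, and rank 1 is the highest score of a list. Sharing followed rank closely in both lists. In the RA list the shared part was 77.7% in the highest of 4 equal rank bins (exact Clopper-Pearson 95% interval 73.8 to 81.3), then 41.0%, 24.1% and 15.6% (12.5 to 19.1). In the control list it was 97.1% (94.3 to 98.7), 80.1%, 64.6% and 46.3% (40.3 to 52.5). These intervals, like all those given here, cover counting error only. All of the 100 highest control peaks and 198 of the highest 200 had an RA peak. Conversely 97 of the highest 100 RA peaks and 187 of the highest 200 had a control peak. The 3 exceptions among the highest 100 RA peaks were nearest to Skap1 (rank 65), Dmr (rank 72) and Mir1901 (rank 83.5). The median percent rank (0 highest, 100 lowest) was 25.7 for shared peaks and 63.4 for RA only peaks, both in the RA list, and 73.6 for control only peaks in the control list. RA only peaks were also narrower, with a median of 211 bp against 285 bp for shared RA peaks, and control only peaks had a median of 181 bp. A percent rank from lists of unequal length shows no change in binding.

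**Figure D1:**
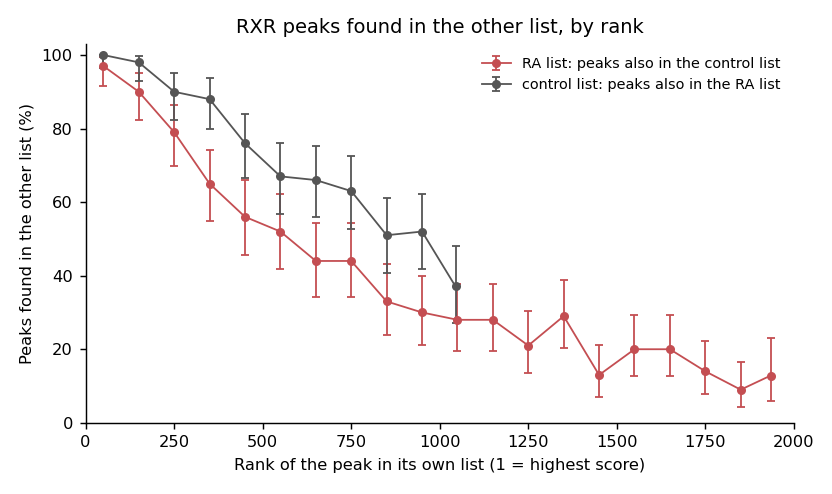
Share of peaks with a partner in the other list (vertical, percent, with exact 95% intervals) by rank in the own list (horizontal, windows of 100 peaks), for the RA list in red and the control list in grey. In both lists the share falls from nearly all of the highest peaks to a minority of the lowest ones.

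The classes had few borderline members. Only 2 of 1189 RA only peaks had a control peak within 100 bp, 15 within 1 kb and 243 within 100 kb. Just outside the limit, RA only peaks lay 86 bp (AY512931), 123 bp (Letmd1) and 141 bp (Trim16) from a control peak. Just inside it, the overlap was 36 bp at Nudt6 and 38 bp at Ap1g1. Overlaps under 100 bp made up 13 of the 781 shared RA peaks.

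Repeats set the shared class apart from the others. Repeats here are satellites, simple repeats, rRNA or low-complexity elements and the mitochondrial genome, and they held 19.0% of shared RA peaks (16.3 to 21.9), 2.19% of RA only peaks (1.43 to 3.19) and 2.62% of control only peaks. Peaks named below lie outside them, which leaves 633 shared RA peaks, 1163 RA only and 297 control only peaks.

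The classes differed in promoter share outside repeats more than over all peaks. Promoters, taken as the first 1 kb on either side of a transcription start site (TSS), held 27.9% of shared RA peaks (24.8 to 31.2), 26.2% of RA only peaks (23.7 to 28.8) and 23.3% of control only peaks (18.7 to 28.4). Outside repeats the values were 34.4% (30.7 to 38.3) for shared and 26.7% (24.2 to 29.4) for RA only peaks. Among RA only peaks the promoter share was higher at lower ranks, with 16.4% in the highest rank bin of the RA list (10.0 to 24.6), then 21.1%, 26.2% and 32.3% (27.8 to 37.0). Shared RA peaks had 22.7%, 31.8%, 35.8% and 31.6% in the same bins, so both classes had their lowest share in the highest bin. Introns held 31.4% of shared RA peaks, 34.7% of RA only and 42.6% of control only peaks (37.0 to 48.4). Distances of 10 to 100 kb held 42.2% of RA only peaks, the most common range in all 3 classes.

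**Figure D2:**
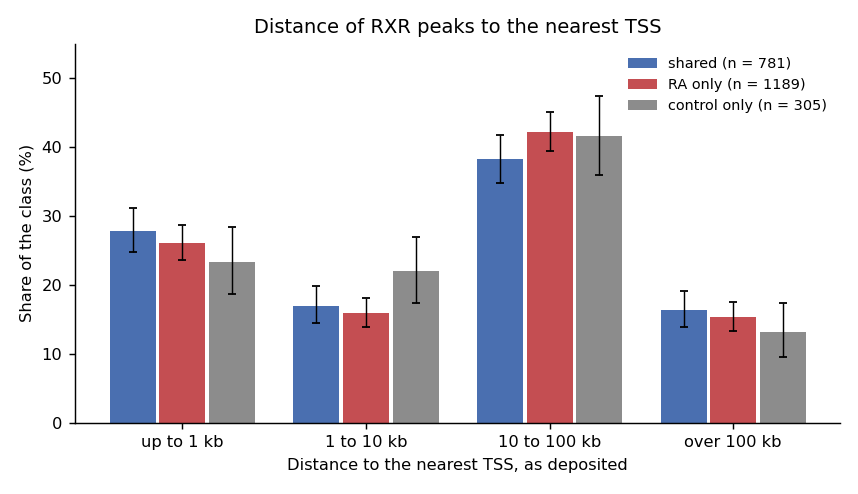
Share of each class (vertical, percent, bars from 0 with exact 95% intervals) by the deposited distance to the nearest TSS (horizontal), for shared RA peaks (n = 781), RA only peaks (n = 1189) and control only peaks (n = 305). The 10 to 100 kb range is highest in each class. Repeats are included here.

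Genes were counted by the nearest gene given in the lists, up to 100 kb from the TSS. Of 1713 genes with a peak, 645 had one in both lists (37.7%), 853 in the RA list only (49.8%) and 215 in the control only (12.6%). The 24 genes of retinoid receptors and metabolism included 9 with a peak, 7 in both lists and 2 in the RA list only. The RAR genes were all in both lists, each at its promoter. All positions are mm10, as the lists give them, and those of shared peaks are from the RA list. Rarb (peak chr14:16575354-16575735) had a score of 54.8 and rank 27 with RA, and 33.0 and rank 52 in the control. Rarg (chr15:102246981-102247259) had a score of 27.4 and rank 121.5 with RA, against 15.4 and rank 189. Rara (chr11:98959836-98960044) had 16.4 and rank 285.5 with RA, against 8.47 and rank 474. All 3 promoter peaks were found at day 8 of differentiation in both replicates.

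The genes that handle RA itself had shared peaks and, at several, further RA only peaks. Cyp26a1 and Cyp26b1 encode the enzymes that degrade RA. The shared Cyp26a1 peak, at -1908 bp (chr19:37695796-37696005, intergenic), scored 9.70 (rank 621) with RA and 8.64 (rank 462.5) in the control. The 3 RA only peaks of Cyp26a1 lay at 4669, 116839 and 153965 bp, with scores of 5.27, 12.5 and 3.97. Cyp26b1 had a shared peak at -46898 bp (chr6:84640558-84641055, in an intron of an overlapping transcript), with a score of 26.1 and rank 133 with RA against 10.1 and rank 348, and RA only peaks at -103826 bp (score 11.9) and 10275 bp (score 7.44). Dhrs9, a retinol dehydrogenase gene, had a shared peak at 38159 bp that scored 8.35 with RA and 7.75 in the control. Stra6, the membrane receptor for retinol taken up from the blood, had an intronic RA only peak at 6052 bp (chr9:58140594-58140840, score 11.8, rank 464). Dhrs3, a retinal reductase gene, was RA only within 100 kb by a low peak at 5235 bp (score 4.09, rank 1759). Its higher peaks lay beyond that limit and were shared. The peak at 141645 bp (chr4:145034550-145035015) had a score of 95.9 and rank 12 with RA against 33.6 and rank 48, and the one at 107036 bp had 25.3 and rank 142 against 8.27 and rank 491. Dhrs3 was thus RA only by the window alone.

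Of the RA-responsive regulators on the list, 14 had a peak within 100 kb: 7 with RA only, 5 in both lists and 2 in the control only. The RA only share is close to the 49.8% over all genes with a peak. With lists of equal length the RA only genes were 3 of 10, and with a window of 10 kb they were 0. Meis1 and Meis2, homeobox partners of Hox proteins, each had 3 RA only peaks. Those of Meis1 lay at 61761, 129667 and 133210 bp with scores of 4.19, 9.20 and 4.31, and Meis1 also had a shared peak at 270791 bp (score 25.6 with RA and 14.7 in the control). The highest Meis2 peak lay at 43394 bp in an intron (chr2:116021091-116021364), with a score of 23.4 and rank 165.5, and overlapped an H3K27ac peak of the RA list alone. Tshz1, a zinc finger regulator, had RA only peaks at 246730, 13022 and 11376 bp with scores of 25.1, 13.7 and 7.64. Single RA only peaks lay near Gbx2, a homeobox gene of the hindbrain border (score 3.53), Foxa1, a forkhead factor (5.23), Nrip1, a nuclear receptor corepressor (10.8), and Rai1 (5.92). Stra8, a meiosis gene induced by RA, had a shared promoter peak at rank 400 with RA and 757.5 in the control. Nr6a1, an orphan nuclear receptor gene, had a control only peak (rank 612).

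At the Hox clusters, RA only peaks stood beside shared ones. Of 39 Hox genes 7 had a peak. Hoxa5, Hoxb3 and Hoxc4 were among those in both lists, Hoxa2 and Hoxb1 had peaks with RA only, and Hoxb13 in the control only. Hoxc4 had shared peaks at 27299 and 31385 bp, with ranks 51 and 70 with RA and 84 and 521 in the control, and an RA only peak at 4530 bp (score 16.6, rank 281). The RA only peak of Hoxa2 lay at -10696 bp (chr6:52175349-52175706, in an intron of an overlapping transcript, score 22.2, rank 180), over H3K27ac of the RA list alone. The RA only peak of Hoxb1 lay at 7054 bp (score 6.86). Skap1, a gene beyond the Hoxb1 end of the Hoxb cluster, had 2 shared peaks at ranks 110 and 112 with RA and 250 and 417 in the control, and between and around them 3 RA only peaks at ranks 65 (chr11:96579015-96579359, intron), 810.5 and 1836. All 5 Skap1 peaks were present at day 8 in both replicates.

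These retinoid, RA-responsive and Hox genes, taken at any distance, carried 28 RA only peaks near 17 genes. Both day 8 replicates held 19 of the 28 (67.9%, 47.6 to 84.1), while of all 1189 RA only peaks 189 were at day 8 (15.9%, 13.9 to 18.1). The day 8 cells belong to a neural differentiation by way of embryoid bodies, and its protocol includes RA at 5 µM. Peaks at 1 locus are not independent, and by gene the day 8 count was 12 of 17, against 175 of 1088 genes with an RA only peak. By rank bin of the RA list the counts were 8 of 10 in the highest bin (44.4 to 97.5%), 4 of 6 (22.3 to 95.7%), 2 of 5 (5.27 to 85.3%) and 5 of 7 in the lowest (29.0 to 96.3%). Of all RA only peaks 39.1% (29.9 to 48.9), 18.0% (13.7 to 22.9), 14.3% (10.9 to 18.2) and 9.71% (7.03 to 13.0) were at day 8 in the same bins, and the intervals overlap in the first 3 of the 4 bins. In the list of LG268, an RXR agonist given to ES cells, the same 28 peaks were not more frequent than the class as a whole, with 10 (35.7%) against 39.5%. None of the 28 lay within 1 kb of a TSS, where 26.2% of all RA only peaks did. H3K27ac covered 5 of them in either list, 4 in the RA list alone, and 23 lay in neither. Of all 878 RA only peaks over 1 kb from a TSS, 32 (3.64%) had it in the RA list alone and 760 (86.6%) in neither. Of the 23 shared peaks of these retinoid, RA-responsive and Hox genes, 17 were at day 8 (73.9%, 51.6 to 89.8), beside 42.9% of all shared RA peaks. Day 8 presence was thus not particular to their RA only peaks. None of the 4 control only peaks of the same genes was in both day 8 replicates, and that of Nr6a1 was in 1. The genes were picked with these lists' results known and no test was made.

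The 633 shared peaks outside repeats can be put in order within each list, and that order does not depend on list length. Across them Spearman's rho between the orders was 0.505, a description over peaks of 2 libraries, and 314 peaks stood within 100 places. Of the 23 shared peaks of the retinoid, RA-responsive and Hox genes, 17 stood higher in the RA list, with a median of 40.5 places, while of all 633 peaks 304 (48.0%) stood higher, with a median of -2 places. For LXR and lipid synthesis genes 3 of 10 stood higher (median -2), and for PPAR targets 0 of 7 (median -71). Scd3, Scd2, Abcg1, Scd1, Fasn and Srebf1 held places 1 to 6 in the control, where little or no rise was possible. The count for LXR and lipid synthesis genes was therefore limited in advance. Scd2 and Slc25a20 kept their place and were counted as not higher. The Dhrs3 peak at 107036 bp moved from place 312.5 to 71 and Rara from 301 to 155.5. Cdx1 moved the other way, from 116 to 270.5. Among all shared peaks the largest rises in percent rank included those at Calr, 4930524C18Rik, Irf2bpl, Ulk2, Slc14a2, Git1, Eci2, Map2k6 and Usp24. In the length-free order Calr, a chaperone gene of the endoplasmic reticulum, stood at place 628.5 in the control and 85 with RA. The largest falls were at Crtc2, Ankrd55, Mlycd, Slc27a6, Crlf2, Nek2, Slc35d1, Zfp219 and 2 peaks of 2700054A10Rik. Mlycd, which encodes malonyl-CoA decarboxylase of fatty acid metabolism, stood at place 272 in the control and 627.5 with RA. Crtc2, a CREB coactivator gene, stood at places 163.5 and 612.5.

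**Figure D3:**
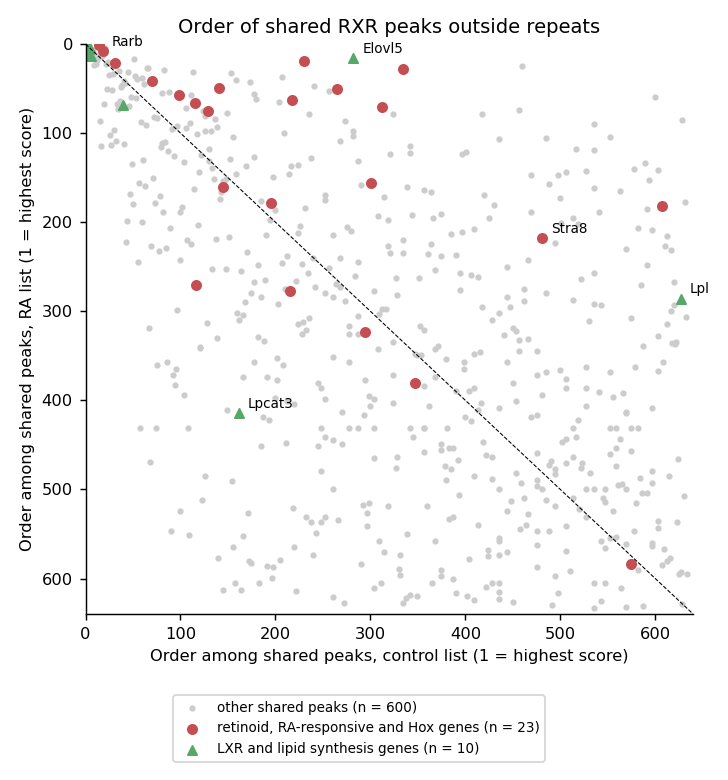
Order of the 633 shared peaks outside repeats in the control list (horizontal, place 1 highest score) and in the RA list (vertical, place 1 at the top), with peaks of retinoid, RA-responsive and Hox genes in red (n = 23), of LXR and lipid synthesis genes in green (n = 10) and the others in grey. The dashed line marks the same place in both lists, and 17 of the 23 red points lie above it.

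LXR targets and lipid synthesis genes mostly had peaks in both lists. Of 11 with a peak, 10 were in both lists, 1 in the control only and 0 with RA only. With the same score cut in both lists these counts were 8, 2 and 1, and with a window of 10 kb they were 6, 1 and 0. Over all genes with a peak the shares were 37.7% in both lists, 12.6% in the control only and 49.8% with RA only. The Scd2 peak at -9412 bp (chr19:44284046-44284482, CpG island), near a stearoyl-CoA desaturase gene, had rank 13 in both lists, with scores of 91.8 with RA and 76.8 in the control. Fasn, the fatty acid synthase gene, had a promoter peak (chr11:120824507-120824991) of rank 17 with RA and 19 in the control. Elovl5, a fatty acid elongase gene (chr9:77910497-77910913), stood at place 16 of the shared peaks with RA and 282 in the control. Lpcat3, which remodels phospholipids, stood at place 414.5 with RA and 161.5 in the control. Further RA only peaks lay beside shared ones at Abca1, the sterol exporter (1014 bp, score 19.8), Scd2 (-26645 bp, score 12.2) and Srebf1, the sterol regulatory factor (-2434 bp, score 5.63). The control only gene was Arl4c (promoter, rank 541.5). PPAR targets had 12 genes with a peak: 7 in both lists, 3 with RA only (among them Acadl of fatty acid oxidation, and Klf10) and 2 in the control only (Txnip and Ucp3). The shares over all genes given above stand beside these counts too.

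Of 81 neural, neuronal, glial, endoderm, mesoderm and trophoblast genes 15 had a peak within 100 kb, 10 of them with RA only, 3 in both lists and 2 in the control only, beside 49.8% RA only over all genes with a peak. The neural members were all with RA only, among them Neurog1, a proneural factor, and Msi1, an RNA-binding protein of progenitors. The Neurog1 peak had a score of 3.78. Elavl4 and Mnx1, of neurons and motor neurons, were also RA only. The peaks of these 4 genes were not in both day 8 replicates. Of the 4 endoderm genes with a peak, Sox7 and Col4a1 were RA only, with scores of 4.79 and 4.62, and both peaks were at day 8. Dab2 was in both lists and Pdgfra in the control only. Of the 4 glial genes with a peak, Gfap and Slc1a3 were RA only, and Aldh1l1 and Sox9 were in both lists. None of the 20 pluripotency genes had a peak in either list. The H3K27ac lists, used as a check of the cell label, had a peak within 10 kb of 3 of 6 ES markers in each condition. They had one for 5 of 6 neural markers in the control and 3 with RA, 2 of 4 endoderm markers in each, and 0 of 6 fibroblast markers in each.

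The other RXR lists gave a readout that did not enter the classes. Among peaks found with LG268 were 85.9% of shared RA peaks (83.3 to 88.3), 39.5% of RA only peaks (36.7 to 42.4) and 38.0% of control only peaks (32.6 to 43.7). Shared peaks weighted to the ranks of RA only peaks, a weighting added once the data had been seen, gave 76.3%. The day 8 lists held 42.9% of shared RA peaks, 15.9% of RA only peaks and 7.87% of control only peaks (5.11 to 11.5). Weighted to the RA only ranks, the shared value was 21.3%. In the highest rank bin of the RA list, shared peaks were found at day 8 in 67.7% (62.8 to 72.4) and RA only peaks in 39.1% (29.9 to 48.9). In rank bins 2, 3 and 4 the values were 23.9% and 18.0%, 13.3% and 14.3%, and 14.5% and 9.71%, with overlapping intervals in each. Among peaks absent from the LG268 list, 19 of 110 shared RA peaks (17.3%, 10.7 to 25.7) and 106 of 719 RA only peaks (14.7%, 12.2 to 17.5) were at day 8. GW3965, an LXR agonist, held 28.8% of shared RA peaks, 5.89% of RA only and 6.89% of control only peaks. In none of LG268, GW3965 and either day 8 replicate were 512 RA only peaks (43.1%), 158 control only peaks (51.8%) and 68 shared RA peaks (8.71%).

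**Figure D4:**
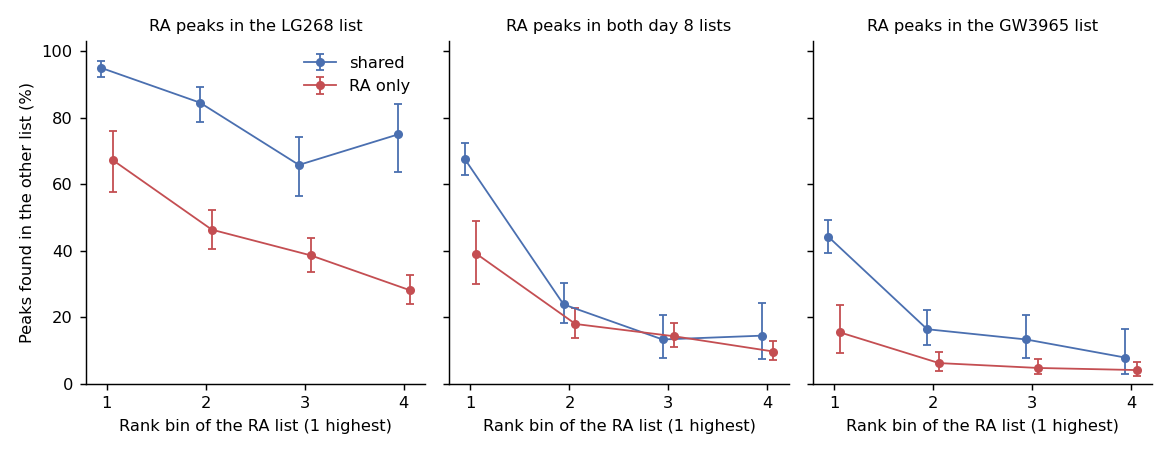
Share of RA peaks (vertical, percent, with exact 95% intervals) found with LG268, in both day 8 replicates and with GW3965, by rank bin of the RA list (horizontal, 4 equal bins, 1 highest), for shared peaks in blue and RA only peaks in red. The classes stand apart in every bin for LG268, and from bin 2 on their intervals overlap for day 8.

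H3K27ac differed between shared and RA only peaks away from promoters more than at them. At promoters, H3K27ac lay in both conditions over 58.3% of shared RA peaks (51.4 to 64.9) and 60.8% of RA only peaks (55.1 to 66.2), and over 39.4% of control only peaks (28.0 to 51.7). At distal sites, over 1 kb from a TSS, it lay in both over 17.2% of shared peaks (14.2 to 20.6) and 4.90% of RA only peaks (3.57 to 6.54). In neither list were 68.7% of distal shared peaks (64.7 to 72.5), 86.6% of distal RA only (84.1 to 88.7) and 88.0% of distal control only peaks (83.2 to 91.9). The gap was smaller outside repeats, where the distal shared peaks in neither list were 80.2% (76.1 to 84.0) and the RA only ones 86.5% (84.0 to 88.7). Among distal RA only peaks with H3K27ac, 32 of 118 had it with RA alone (27.1%, 19.3 to 36.1) and 43 in the control alone (36.4%). Among distal shared peaks the RA alone share was 46 of 176 (26.1%, 19.8 to 33.3). The intervals of these 2 RA alone shares overlap. The H3K27ac lists differ in length, 14958 peaks with RA and 21418 in the control, and with equal lengths the RA alone shares were 37.1% for RA only and 32.1% for shared peaks. For distal RA only peaks the control alone share was then 22.7%, so the order of the RA alone and control alone shares turned with list length.

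**Figure D5:**
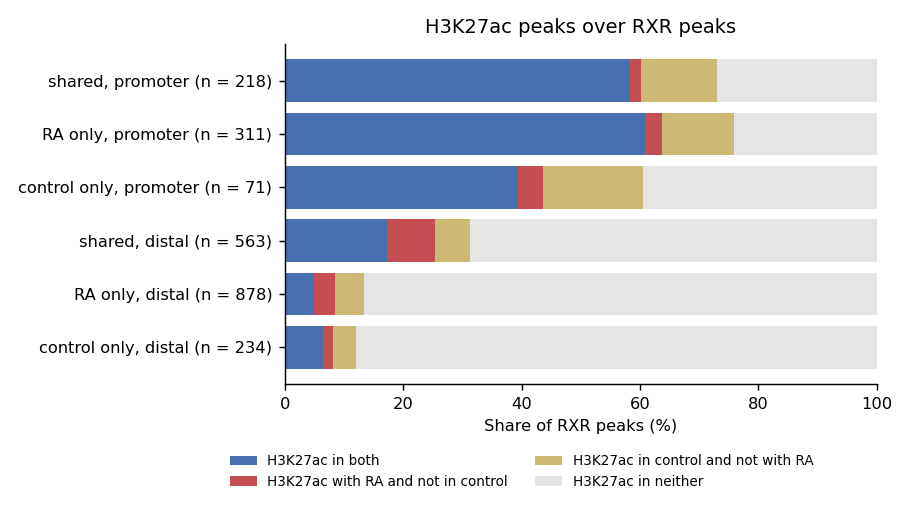
Share of RXR peaks (horizontal, percent) covered by H3K27ac in both conditions, with RA alone, in the control alone or in neither, for each class at promoters and at distal sites, with the number of peaks beside each bar. Promoter bars of the shared and RA only classes have a like make-up, and distal bars are mostly in neither list.

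In all, 41 RA only peaks outside repeats lay over H3K27ac of the RA list alone, 15 of them within 10 kb of a TSS. By RXR rank the 10 highest of the latter were at Atg5, Rspry1, St8sia6, AY512931, Trim47, Junb, Tomm20, Alkbh6, Kif3a and Zcchc7. Atg5, an autophagy gene, had a promoter peak scored 8.49 (rank 751), and Junb, an AP-1 factor gene, one at 2129 bp with 5.04. Distal peaks over H3K27ac of the RA list alone stood higher at Meis2 (rank 165.5), Hoxa2 (rank 180) and Nr2f2 (rank 351.5). Nr2f2 is an orphan nuclear receptor gene, and its peak lay at -257954 bp.

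Direct repeats were sought in promoters of 250 bases before to 50 bases after the start, both strands, as no genome was used here. Of 596 genes with a peak in their promoter, 454 matched the RefSeq table by name. The promoters counted next are not limited to these matches. Those over RA only, shared and control only peaks belonged to 215, 167 and 33 genes, and a gene with several promoters counts once for each. A direct repeat of NGNTCA with 0 to 5 bases between the hexamers was in 22 of the 243 promoters over an RA only peak (9.05%, 5.76 to 13.4). It was in 10 of 181 over a shared peak (5.52%, 2.68 to 9.93), 2 of 34 over a control only peak (5.88%) and 1807 of all 32851 promoters (5.50%). With stricter hexamers, spelled AGGTCA or AGTTCA or else GGGTCA or GGTTCA, the counts were 10 of 243 (4.12%, 1.99 to 7.44) for RA only and 4 of 181 (2.21%, 0.605 to 5.56) for shared peaks, with 0.907% of all promoters. Most of the RA only matches were DR1, 7 of 243 (2.88%, 1.17 to 5.84), where shared peaks had 0 of 181 and all promoters 0.222%. They were in the promoters of Dph5, Gm40303, Ndufs6, Pold1, Ranbp1, Ranbp17 and Trmt2a, named after their values were seen. Ranbp1 and Trmt2a lie back to back and share the match under 1 peak. The DR5 of Rarb ends 37 bases before the start, that of Syndig1 151 bases and that of Gm52524 200 bases before it. The Gm52524 peak had rank 1042.5 and was at day 8 in both replicates but not with LG268, and the list names Mir1951, 138371 bp away, as its nearest gene. The Syndig1 peak had rank 1707 and was in neither.

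Control only peaks were few and low in their list. The 10 highest outside repeats were nearest to Hunk, Erdr1, Aff3, Zfp746, B9d1, Arih2, Gadd45a, 2810049E08Rik, Rps3a1 and Plxdc2, from rank 210 to 299. Hunk, a kinase gene, had a score of 14.3 in an LTR element at 35934 bp, with no peak at day 8. Gadd45a, a stress-response gene, had a peak at -108792 bp with a score of 11.3. Of these 10 peaks, 8 were in the LG268 list. Control only peaks were at day 8 in 4 of 8 cases in the highest rank bin of the control list (15.7 to 84.3%), and in 13.0%, 7.22% and 4.11% in rank bins 2, 3 and 4.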

How the data were processed

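Each ChIP-seq library was deposited by the authors as 1 annotated peak list, called per library. Per the file headers each list gives positions in mm10, a peak score, the annotation, the distance to the nearest TSS and the nearest gene. The submitters' processing notes name BWA 0.6.0, MACS2 2.0.10 and HOMER 4.2, and the builds mm9 and mm10 with no role for each. The score is the authors' value, of a scale not stated, and was used here for ranks within a list and for 1 score cut of 7.65, the control median, set on both lists as an alternative. Peak numbers up to 2172 (RA) and 1272 (control) appear, of which 9.30% and 14.4% are absent, by a step the sources do not describe.

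From these lists, classes, ranks, shares with exact 95% intervals and gene counts were computed in Python 3.11.15 (numpy 2.4.6, pandas 2.3.3, scipy 1.17.1, matplotlib 3.10.9). The overlap step was checked on control peaks moved by a short distance, and 600 of 600 planted overlaps were found. Such small shifts leave the peaks overlapping, so the check covers the code only. No test was made between conditions of 1 library. Day 8 and day 16 counted where both replicates had a peak. Rank-weighted shares were taken from shares within 4 rank bins of the RA list.

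The classes and gene lists were chosen with earlier results of these data known. Named genes are those of the 10 highest peaks of each class outside repeats and of the 10 largest rises and falls among shared peaks. Genes with 3 or more RA only peaks and members of the fixed gene lists are named too. So are the 10 highest RA only peaks within 10 kb of a TSS over H3K27ac of the RA list alone. Some genes this rule names are not reported here. Alternatives were other overlap rules, list lengths, score cuts, windows and hexamers, and repeats left out. Rank weighting was added once the data had been seen. The planned direct repeat scan of whole peaks was replaced by promoters, because no genome sequence was used here.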

Additional observations from a re-analysis of the deposited data

How the results depend on the processing

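The share of RA peaks without a control peak, 60.4%, was 63.2% with 50% reciprocal overlap, 65.3% without repeats, 53.7% with the same score cut and 43.3% with lists of equal length. The share of control peaks without an RA peak, 28.0%, was 33.4%, 33.1% and 43.1% under reciprocal overlap, without repeats and at equal length. RA only genes, 49.8% of genes with a peak, were 45.4% with the same score cut and 27.6% at equal length. The difference of RA only minus shared peaks in promoter share, -1.76 points, reversed to 0.367 under reciprocal overlap, and was -8.48 without repeats and -6.01 with rank weighting. For LG268 that difference, -46.4 points, was -39.6 at equal length, -29.6 with the score cut and -36.7 with rank weighting. For day 8, -27.0 points, it was -39.5 with the score cut, -15.4 without repeats and -5.43 with rank weighting, and -28.2 and -27.1 with 1 day 8 replicate left out. For H3K27ac of the RA list, -12.1 points, it was -18.2 at equal length, -19.8 with the score cut, -7.79 without repeats and -4.35 with rank weighting. For H3K27ac of the control list, -10.2 points, it was -16.4 at equal length and -17.9 with the score cut. Equal length and the score cut use fewer peaks, and for the other changes the cause was not tested. The directions held in all of these but the promoter share. No paired analysis was possible because each ES condition has 1 library and no result comes from a test. Depth is unknown, so absence from a list does not show absence of binding.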

Other observations

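Chromosome 11 held 13.9% of RA peaks (12.4 to 15.5) and 14.8% of control peaks (12.7 to 17.0), beside 10.0% and 9.25% of H3K27ac peaks of the same conditions and 6.17% of RefSeq genes. The RXR lists with LG268 and GW3965 had 11.9% and 10.9% there. The share was alike in RA only peaks (13.7%), shared RA peaks (14.2%) and control only peaks (16.1%). The X chromosome held 0.914% of RA peaks and 0.643% of control peaks, beside 2.86% and 3.26% of the H3K27ac peaks.

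Genes with 3 or more RA only peaks within 100 kb were Tex14 (4 peaks, ranks 1013.5 to 1611.5), Camk2n1 (3, ranks 1155 to 1893.5), Erdr1 (3, ranks 481 to 1945.5, 1 of them in a repeat) and Gse1 (3, ranks 699 to 1707). Tex14, a gene of germ cell bridges, had its 4 peaks between 87426766 and 87471584 on chromosome 11 and 1 control peak. Each of these genes also had a control peak. No gene had 3 control only peaks.

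Outside the lists fixed for naming, RA only peaks with H3K27ac of the RA list alone at high rank lay near Nck2 (rank 211, -84788 bp), Zc3h15 (rank 324.5), Sdk2 (rank 338.5) and Traf3ip2 (rank 459.5), chosen after their values were seen. Those of Nck2, Sdk2 and Traf3ip2 were present in both day 8 replicates.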
